A study of Mus musculus with 22 samples.

Results

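Close poly(A) site pairs are places where 2 RNA 3′ ends lie within 200 nt of each other on the same strand, with no other frequently used end nearby. They were found in 20 libraries made with 3′READS, in which reads come from fragments ending at the poly(A) tail and each read marks where an RNA ended. The reads of all libraries were pooled. Positions with at least 200 pooled reads outside the mitochondrial chromosome were kept, and kept positions on the same strand were chained over gaps of up to 5000 nt. A chain of exactly 2 kept positions that lay 200 nt or less apart counted as a close pair. The rule found 967 close pairs among 11230 chains, or among 2352 chains of exactly 2 positions. In each pair the upstream position is called proximal and the downstream position distal, and the distal share is the percentage of the pair's reads at the distal position. The pairs were thus chosen by pooled read counts and spacing, so pooled depth, spacing and pooled shares are given as descriptions without a test.

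An RNA's 3′ end is made by cleavage of the nascent transcript followed by addition of a poly(A) tail. The cleavage machinery recognises a short signal upstream of the cut and sequences downstream of it, and many genes offer several such sites, a situation called alternative polyadenylation. PCF11 is a subunit of cleavage factor II that binds the tail of RNA polymerase II and takes part in both 3′ end processing and transcription termination. When the sites of a gene are far apart, the choice between them can change the coding region or remove a long stretch of 3′ UTR. When they are close, the RNAs differ by a short terminal stretch, and the polymerase reaches the distal site soon after the proximal one.

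The libraries came from 3 mouse cell lines, and the labels give the strain C57BL/6 for all of them. C2C12 is a myoblast line that can form muscle-like cells, NIH3T3 is a fibroblast line, and 4T1 is a mammary tumour line. There were 10 groups of 2 libraries: C2C12 total RNA, untreated or with siPcf11 (siRNA against Pcf11); C2C12 RNA from cells given 4-thiouridine (4sU, which marks RNA made during the labelling) at 50 µM for 1 h, untreated or with siPcf11; untreated C2C12 cells titled as proliferating or differentiated; NIH3T3, untreated or with siPcf11; and 4T1, untreated or Pcf11-IPAKO. The term IPAKO is not spelled out in the labels, which also do not say whether these 4T1 cells were a single clone. No control siRNA is named, so an effect of transfection cannot be told apart from an effect of siPcf11. The labels do not state whether replicate libraries are separate cultures, so the p-values reflect spread between libraries that may be technical replicates. The files carry no gene names, so the level of Pcf11 and cell identity markers were not analysed here.

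Libraries held 1887532 to 4432717 reads, of which 8.13% to 10.9% fell on close pairs. Replicates of a group were not identical, and their difference per pair was larger than counting noise in every group, with a mean chi-square per pair (1 degree of freedom) of 1.37 to 8.61. The highest value was in NIH3T3 siPcf11, followed by untreated 4T1 at 5.51 and 4T1 Pcf11-IPAKO at 3.94. The median difference in distal share between the replicates of a group was 7.01 percentage points in NIH3T3 siPcf11 and 2.44 to 4.87 points in the other groups.

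Close pairs fell into 2 kinds that were separated by their spacing. In 446 pairs (46.1%), all 23 nt apart or less, no library had reads at both positions: each of the 4 sets of libraries (C2C12 siRNA, C2C12 differentiation, NIH3T3 and 4T1) listed at most 1 of the 2. In the other 521 pairs, 25 to 200 nt apart, at least 1 set had reads at both positions. The pair on chromosome 7, plus strand, at 19941872 and 19941873 was of the first kind, 1 nt wide. Its 13887 proximal reads all came from NIH3T3 and its 37397 distal reads all from C2C12 and 4T1. A pair on chromosome 4, plus strand, at 117346885 and 117346886 gave a distal share of 0% in every 4T1 library and 100% in every other library. At 29617266 and 29617267 on the plus strand of chromosome 7, the distal share was 100% in every NIH3T3 library and 0% in the others.

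The split followed the sets in which positions were listed. Among pairs with 1 position per set, the C2C12 siRNA and differentiation sets used the same position in 445 of 445 pairs read in both. C2C12 and NIH3T3 used the same position in 67 of 439, 4T1 and C2C12 in 206 of 433, and 4T1 and NIH3T3 in 154 of 428. Over all positions listed in the files, neighbours 24 nt or less apart numbered 13 to 647 within a set and 232 between the 2 C2C12 sets. Between cell lines they numbered 12164 to 19843. When listed positions within 24 nt were joined into 1 site, all 446 of these pairs became a single site, and 509 of the other 521 were still close pairs. How the authors grouped reads into positions is not given in the sources used here, and its part in these differences was not tested. The 446 pairs therefore give no distal share that can change within a set. Results below on changes within a set rest on the other 521 unless stated otherwise. The counts between cell lines as listed, and the means over all close pairs, include both kinds.

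**Figure D1:**
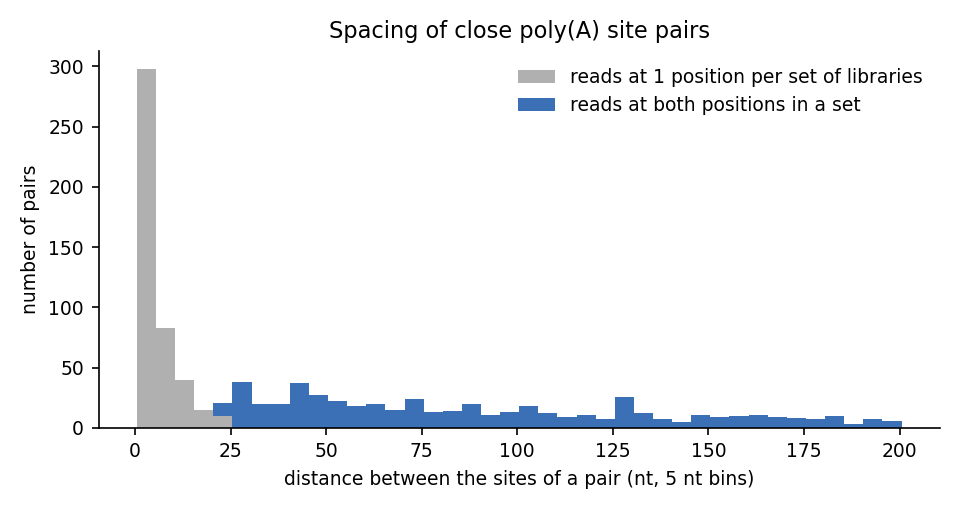
Number of close pairs (y axis) by the distance between the 2 positions in 5 nt bins (x axis, nt), stacked by whether any set of libraries had reads at both positions. The 446 pairs with 1 position per set all lie at 23 nt or less, and the 521 pairs with both positions in a set lie from 25 to 200 nt.

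The 521 pairs with both positions had a median spacing of 79 nt, with 153 pairs at 25 to 50 nt, 170 at over 50 to 100 nt and 198 at over 100 to 200 nt. Both positions had reads in all 4 sets for 392 pairs, in 3 sets for 75, in 2 sets for 42 and in 1 set for 12. The distal position had more pooled reads in 267 pairs and the proximal one in 254. By spacing class, from closest to farthest, the median pooled distal share was 40.0%, 54.3% and 57.2%. The weaker position held a median of 22.3% of a pair's reads, over 20% in 287 pairs and under 5% in 65. Other listed positions within 24 nt were present at 95 pairs and held over 5% of the reads at 43. A kept position on the opposite strand lay within 300 nt of 27 pairs. At the edges of the rule, 13 pairs lay over 190 nt apart and 23 chains of 2 positions lay just outside, at over 200 to 210 nt. In 56 pairs the weaker position had 200 to under 220 pooled reads. For 146 of the 521, a position reached the minimum only with the reads of 1 group.

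Some of the pairs with most reads were lopsided in every group. On chromosome 4, minus strand, the proximal position 3761617 held 437484 pooled reads and the distal position 3761426, 191 nt away, held 239. The pair at 13504409 and 13504452 on chromosome 2, plus strand, 43 nt wide, was the opposite case, with a pooled distal share of 98.3% and group means of 93.0% to 98.8%. The fifth by reads lay on chromosome 1, plus strand, at 55148081 and 55148156, 75 nt apart with 62040 reads, and both of its positions were well used.

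In C2C12 total RNA, siPcf11 moved more close pairs toward the distal than toward the proximal position. Of the 431 pairs with enough reads to test, 65 changed (15.1%), 51 toward distal and 14 toward proximal, with Benjamini-Hochberg adjusted p under 0.05 in edgeR's quasi-likelihood test of relative site use. Over all 2877 tested chains of 2 or more positions, 38.9% changed. Among all 2-position chains, 26.6% changed toward distal and 6.65% toward proximal. The median log2 change of distal over proximal reads was 0.20 over the tested pairs, with 279 of 431 above 0, against 0.38 over all 2-position chains. The 65 pairs moved by a median of 12.8 percentage points, from 0.542 to 42.9. Without untreated library 2 the count was 43, and DESeq2 called 12 pairs. The call was kept in all 4 fits that left out 1 compared library for 17 of the 65, and none of the 65 changed direction in those fits. Without pairs that reached the read minimum through 1 group, 55 of 347 were called in total RNA.

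The best-read pair that changed was the 75 nt pair on chromosome 1, with 169 to 8315 reads per library. Its distal share was 16.7% and 16.9% in untreated total RNA (Wilson 95% intervals 15.6% to 17.9% and 15.8% to 18.0%) and 24.4% and 26.0% with siPcf11 (22.7% to 26.2% and 24.3% to 27.6%). The siPcf11 libraries lay above both untreated ones, a log2 change of 0.74 ± 0.16 (SE), adjusted p = 5.5e-05 in edgeR's test and 0.0897 in DESeq2. In the fits without 1 library the adjusted p ranged from 0.000321 to 0.0035.

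Other pairs moved further toward distal from fewer reads. At 50168909 and 50168858 on the minus strand of chromosome 3, 51 nt apart, the distal share was 45.0% and 55.3% untreated and 89.6% and 84.5% with siPcf11, on 38 to 129 reads. The log2 change was 2.74 ± 0.50, adjusted p = 9.84e-07, and the call held in each fit without 1 library. At 52709770 and 52709606 on the minus strand of chromosome 12, 164 nt apart, it was 22.6% and 20.6% untreated and 57.9% and 60.0% with siPcf11, on 19 to 63 reads (adjusted p = 0.000731, edgeR). The groups did not overlap at either pair, which the rule for naming pairs required. The major position switched at the second. In 4sU RNA the second pair gave 37.3% and 42.0% untreated and 33.3% and 43.8% with siPcf11, values that overlapped (adjusted p = 0.887).

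The 102 nt pair on chromosome 9, minus strand, at 70255597 and 70255495 rose in both kinds of C2C12 RNA. In total RNA its distal share was 60.1% and 59.6% untreated and 84.6% and 84.7% with siPcf11, adjusted p = 9.12e-06 in edgeR and 0.00498 in DESeq2. In 4sU RNA it was 65.6% and 62.6% untreated and 87.7% and 91.0% with siPcf11, adjusted p = 7.58e-06 in edgeR. In 4T1 its distal position was listed at 0 reads in all 4 libraries, but other listed positions nearby held 5.06% of the pooled reads of this pair, and joining them gave 35.4% and 20.6% in untreated 4T1.

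Changes toward the proximal position were fewer. At 3841359 and 3841446 on the plus strand of chromosome 5, 87 nt apart, the distal share was 67.5% and 70.8% in untreated total RNA and 29.5% and 33.9% with siPcf11, on 40 to 59 reads. The log2 change was −2.25 ± 0.52, adjusted p = 0.000136 (edgeR), and the call held in each fit without 1 library. In 4sU RNA the untreated libraries of this pair differed from each other, at 57.4% and 35.1%, and spanned the siPcf11 values of 33.3% and 41.9%. The 75 nt pair on chromosome 2, plus strand, at 34631976 and 34632051, with 1625 to 4796 reads per library, fell from 9.26% and 10.0% to 4.73% and 6.83% in total RNA (adjusted p = 0.000222). In 4sU RNA it fell from 10.2% and 15.2% to 6.76% and 6.80% (log2 change −0.98 ± 0.19, adjusted p = 2.76e-06).

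**Figure D2:**
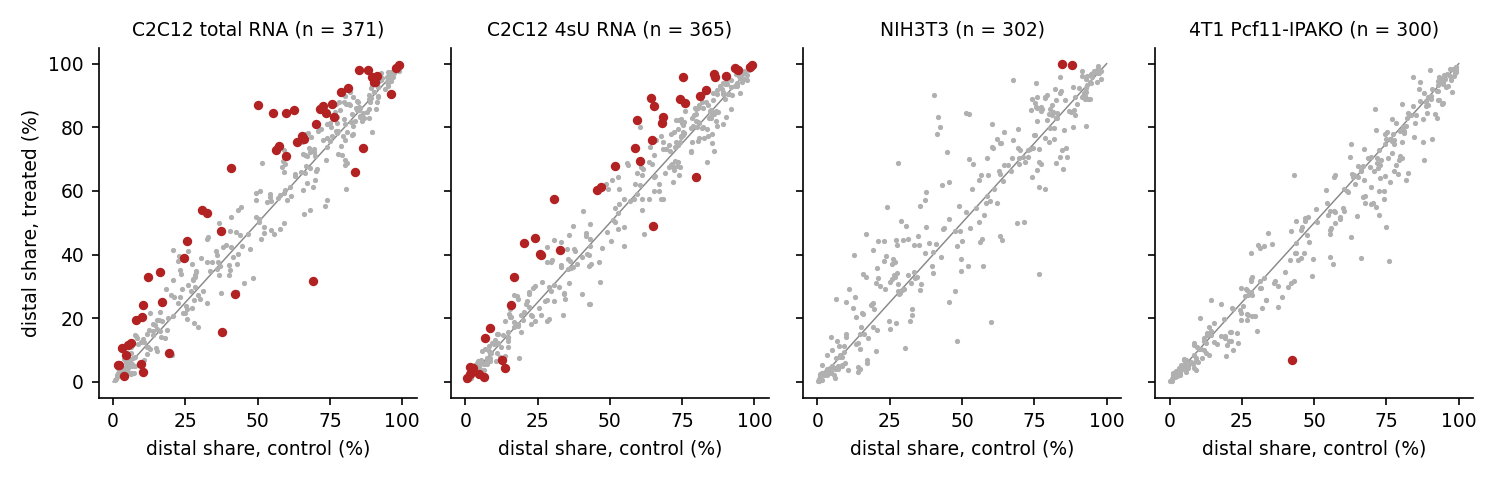
Mean distal share (%) of each tested close pair with at least 20 reads in every library compared, control on the x axis and treated on the y axis, in 4 comparisons. Red points have an adjusted p under 0.05 and the line marks equal shares; in C2C12 total RNA more red points lie above the line than below it.

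In newly made RNA, too, more pairs changed toward distal than toward proximal. In 4sU RNA, siPcf11 changed 47 of 431 tested pairs (10.9%), 40 toward distal and 7 toward proximal, against 34.4% of all tested chains and, among 2-position chains, 22% toward distal and 5.95% toward proximal. The median log2 change was 0.18, with 250 of 431 above 0, against 0.34 over all 2-position chains. DESeq2 called 7 pairs. The count was 24 without untreated library 2, 30 without siPcf11 library 1 and 28 without siPcf11 library 2, and 11 of the 47 were called in all 4 of those fits. The total and 4sU comparisons share no library, but the titles call the total RNA libraries input and number them like the 4sU libraries. Both kinds of RNA may thus come from the same cultures, which the labels do not state, and the comparisons are not taken as independent. They called 26 pairs in common, which is 40.0% of the total RNA calls and 55.3% of the 4sU calls, all 26 in the same direction. Without pairs that reached the read minimum through 1 group, 42 of 347 were called in 4sU RNA. Of the 65 pairs called in total RNA, 51 had the same sign in 4sU RNA, and of the 47 called in 4sU RNA, 43 had the same sign in total RNA. Calls in common and shared signs were not counted over all chains, so they are not read as a trait of close pairs.

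The difference of the siPcf11 response between 4sU and total RNA was itself tested. It passed for 0 of 431 close pairs in edgeR, where 35 had an unadjusted p under 0.05, against 0.139% of all tested chains; DESeq2 was not run on it. The lowest p belonged to the 199 nt pair on chromosome 9, minus strand, at 51751610 and 51751411. In total RNA its distal share was 56.2% and 54.3% untreated and 85.9% and 83.3% with siPcf11, a log2 change of 2.12 ± 0.31 (adjusted p = 1.04e-09, edgeR). In 4sU RNA it was 49.4% and 41.8% untreated and 58.6% and 61.8% with siPcf11, a log2 change of 0.84 ± 0.31 (adjusted p = 0.0235). The groups did not overlap in either RNA, and the difference between the changes was −1.28 ± 0.40 on the log2 scale (adjusted p = 0.232).

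Comparing 4sU with total RNA sets newly made against all RNA from cells of the same treatment. In untreated C2C12, 33 of 431 close pairs differed (19 higher distal in 4sU, 14 higher proximal), or 7.66% against 14.6% of all tested chains. Among 2-position chains 6.96% were higher distal in 4sU and 4.05% higher proximal. With siPcf11, 27 differed (13 and 14), or 6.27% against 10%, and among 2-position chains 3.23% and 3.86%. In untreated cells the count was 4 without 4sU library 2, 7 without total library 1 and 20 without total library 2, and DESeq2 called 1. In siPcf11 cells it was 5 without 4sU library 2, 17 without 4sU library 1 and 10 without total library 1, and DESeq2 called 3. The calls that held in each fit without 1 library numbered 2 and 3. The 2 comparisons share no library and had 9 calls in common, 27.3% and 33.3% of each list, all in the same direction. This overlap, too, was not counted over all chains and is not read as a trait of close pairs.

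A 100 nt pair on chromosome 19, minus strand, at 29423189 and 29423089 was more proximal in 4sU RNA. In untreated cells its distal share was 89.3% and 82.9% in total RNA and 59.6% and 46.2% in 4sU RNA, a log2 difference of −2.40 ± 0.33 (adjusted p = 4.56e-10 in edgeR, 0.000428 in DESeq2). With siPcf11 it was 85.5% and 78.7% in total RNA and 67.0% and 61.9% in 4sU RNA (−1.31 ± 0.32, adjusted p = 0.00174). The 74 nt pair at 151900020 and 151899946 on the minus strand of chromosome 3 went the other way. It gave 26.7% and 30.6% in total and 46.4% and 57.4% in 4sU RNA untreated (adjusted p = 0.00105, edgeR), and 35.4% and 34.1% against 65.9% and 69.5% with siPcf11 (adjusted p = 4.02e-06). The 32 nt pair at 183745478 and 183745446 on the minus strand of chromosome 1 was also more distal in 4sU RNA, at 17.3% and 21.1% against 40.4% and 40.0% untreated (log2 difference 1.48 ± 0.34, adjusted p = 0.000461). With siPcf11 it gave 7.35% and 11.0% against 24.1% and 30.9% (1.88 ± 0.53, adjusted p = 0.0088). At all 3 pairs the 4sU and total libraries did not overlap under either treatment. The rule for naming pairs asked for this in the comparison that named them, so it is no separate support.

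Spacing classes are set side by side as a description. In C2C12 total RNA, siPcf11 changed 13 of 129 tested pairs at 25 to 50 nt, 17 of 139 at over 50 to 100 nt and 35 of 163 at over 100 to 200 nt. Of chains with 2 positions, 27.8% changed at over 200 to 1000 nt and 51% at over 1000 nt. The median log2 change in these 5 classes was 0.18, 0.10, 0.29, 0.27 and 0.86. In 4sU RNA the counts were 4 of 129, 21 of 139 and 22 of 163, with medians of 0.13, 0.17 and 0.21, then 0.28 and 0.61 for the 2 classes of distant chains, of which 24.1% and 43.4% changed. The largest median in each of these 2 comparisons belonged to chains over 1000 nt. Classes were not compared by a test, and their pairs are not replicates.

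**Figure D3:**
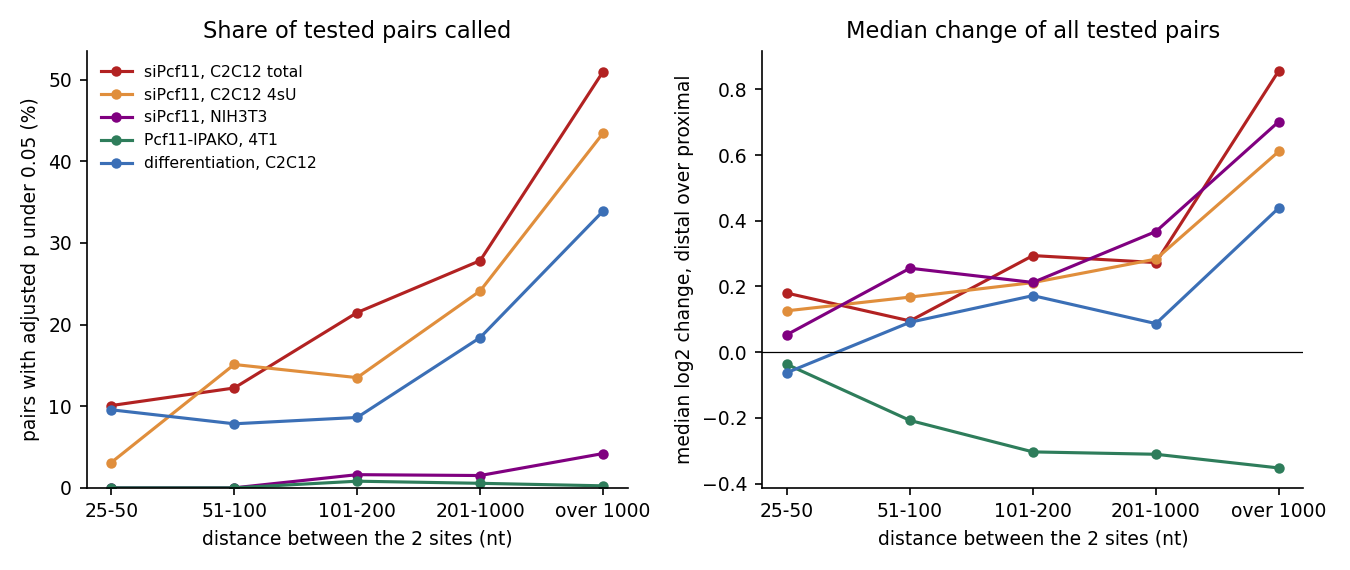
Left, percentage of tested 2-position chains with an adjusted p under 0.05 (y axis) by distance class (x axis, nt) in 5 comparisons; right, the median log2 change of distal over proximal reads in the same classes. In C2C12 total RNA the share called is 51% and the median 0.86 at over 1000 nt, against 10.1% and 0.18 at 25 to 50 nt; in 4T1 all 5 medians lie below 0.

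In NIH3T3, 2 of 322 tested pairs changed with siPcf11 (0.621%), both toward distal, against 2.71% of all tested chains and, among 2-position chains, 2.26% toward distal and 0.0836% toward proximal. The pair at 30905902 and 30905789 on the minus strand of chromosome 13, 113 nt apart, had a distal share of 82.7% and 86.4% untreated and 100% in both siPcf11 libraries, with 0 of 103 and 0 of 222 reads at the proximal position. Those zeros allow a proximal share of up to 2.91% and 1.35%. Its adjusted p was 0.018 in edgeR and 0.00251 in DESeq2. In C2C12 total RNA the same pair rose from 87.8% and 88.7% to 97.0% and 98.9% (adjusted p = 7.81e-06), and in 4sU RNA from 90.3% and 89.8% to 98.3% and 94.0% (adjusted p = 0.0243).

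The other NIH3T3 call was the 130 nt pair at 146598994 and 146599124 on the plus strand of chromosome 6. Its distal share was 83.7% and 92.7% untreated and 99.1% and 100% with siPcf11, with 0 of 121 proximal reads in the last library, which allows up to 2.48% (adjusted p = 0.0489 in edgeR, 0.0664 in DESeq2). In C2C12 total RNA it rose from 84.4% and 85.4% to 96.3% and 100% (adjusted p = 9.67e-07), and in 4sU RNA from 84.8% and 87.2% to 96.0% and 97.2% (adjusted p = 0.000235). At both pairs the siPcf11 libraries lay above the untreated ones in NIH3T3 and in both kinds of C2C12 RNA.

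Single libraries decided the NIH3T3 count. Without siPcf11 library 1 it was 133 (87 toward distal, 46 toward proximal), and without siPcf11 library 2 it was 24. Without either untreated library it was 0, so both calls named above were lost there. The share of all chains called in those fits is not given here, so the counts are not read as a trait of close pairs. At an unadjusted p under 0.05, 31 pairs passed with all 4 libraries. The median log2 change was 0.18, with 184 of 322 above 0, against 0.42 over all 2-position chains. The 75 nt pair on chromosome 1 gave 21.3% and 21.7% untreated and 29.4% and 30.6% with siPcf11, groups that did not overlap, but its adjusted p was 0.397 (log2 change 0.64 ± 0.39). Of the pairs called in C2C12 total RNA, 43 had at least 20 reads in every NIH3T3 library: the mean distal share with siPcf11 was higher in both lines for 24, lower in both for 4, higher in C2C12 and lower in NIH3T3 for 9, the reverse for 3, and equal in NIH3T3 for the other 3. Over 334 pairs the change in distal share correlated with Pearson's r of 0.137 and Spearman's rho of 0.188 between C2C12 total RNA and NIH3T3, a description across pairs that share libraries within each line.

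In 4T1, 1 of 334 tested pairs changed with Pcf11-IPAKO (0.299%), toward proximal, and 14 had an unadjusted p under 0.05. Of all tested chains 1.06% changed, and of 2-position chains 0.272% changed toward proximal and 0.0907% toward distal. This was the 132 nt pair at 23662532 and 23662400 on the minus strand of chromosome 13. Its distal share was 46.2% and 38.3% untreated and 3.00% and 10.9% with Pcf11-IPAKO, on 39 to 165 reads. Its proximal position reached the pooled minimum of 200 reads only with the Pcf11-IPAKO libraries, which held 97 and 147 of its 368 reads, so these values took part in choosing the pair and are given as a description. Of the 277 tested pairs that did not reach the minimum through 1 group, edgeR and DESeq2 each called 0, and 12 had an unadjusted p under 0.05 in edgeR. The count over all tested pairs was 0 without either untreated library.

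The small movements in 4T1 were more often toward proximal. The median log2 change was −0.20, with 119 of 334 pairs above 0, against −0.28 over all 2-position chains, with 361 of 1102 above 0. By spacing class the medians were −0.04, −0.21 and −0.30. Among the 47 pairs that moved by over 10 percentage points, 37 were lower and 10 higher with Pcf11-IPAKO, of 368 with enough reads. Changes in points were not counted over other chains, so this split is not read as a trait of close pairs. The 6 C2C12 groups and NIH3T3 kept the 75 nt pair on chromosome 1 mainly proximal, whereas untreated 4T1 gave 77.3% and 61.7% and Pcf11-IPAKO gave 60.9% and 50.7%, a change that did not pass (−0.84 ± 0.52, adjusted p = 0.796). The 130 nt pair on chromosome 6, which rose with siPcf11, gave 97.6% and 98.0% in untreated 4T1 and 93.9% and 88.0% in Pcf11-IPAKO (adjusted p = 0.139).

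Differentiation of C2C12 changed 40 of 463 tested pairs (8.64%), 21 toward distal and 19 toward proximal, against 28.6% of all tested chains and, among 2-position chains, 14.9% toward distal and 6.81% toward proximal. The median log2 change was 0.08 over close pairs and 0.20 over all 2-position chains. By spacing class, 13 of 136, 12 of 153 and 15 of 174 pairs changed, then 18.4% and 33.9% of the 2 classes of distant chains. The count was 13 without differentiated library 1 and 16 without differentiated library 2, DESeq2 called 5 pairs, 35 of 361 were called without pairs that reached the minimum through 1 group, and 3 of the 40 were called in each fit without 1 library.

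The 84 nt pair at 7625535 and 7625451 on the minus strand of chromosome 10 was one of those 3. Its distal share was 24% and 11.6% in proliferating and 50.5% and 41.7% in differentiated cells (log2 change 2.09 ± 0.43, adjusted p = 0.000145 in edgeR, 0.0223 in DESeq2). The 140 nt pair at 151732051 and 151732191 on the plus strand of chromosome X fell from 28.3% and 25.7% to 14.3% and 17.8% (−0.91 ± 0.25, adjusted p = 0.00363). At 6306078 and 6306161 on the plus strand of chromosome 11, 83 nt apart, it fell from 55.4% and 67.5% to 40.0% and 36.4% (−1.39 ± 0.42, adjusted p = 0.0095). The groups did not overlap at any of the 3, which the rule for naming pairs required. The 113 nt pair on chromosome 13 that rose with siPcf11 also rose on differentiation, from 85.4% and 85.0% to 91.4% and 92.1% (adjusted p = 0.0236), while the 75 nt pair on chromosome 1 gave 13.8% and 14.6% against 14.8% and 15.3% (adjusted p = 0.672).

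More close pairs were called between cell lines than in any treatment comparison, and the count depended on how positions were listed. As listed, untreated C2C12 total RNA and NIH3T3 differed at 665 of 944 tested pairs (70.4%), against 73.5% of all tested chains, but 366 of those were among the 440 tested pairs with 1 position per set. Of the 665, 192 were pairs that reached the read minimum only through 1 group, and without such pairs 473 of 655 differed. Those 655 still include pairs with 1 position per set. Of the tested pairs with both positions in a set, 299 of 504 differed. Of these 299, 64 reached the minimum only through 1 group. With listed positions within 24 nt joined, 297 of 578 joined close pairs differed (51.4%), against 63.9% of all joined chains. For 4T1 against the same NIH3T3 libraries, 535 of 944 differed as listed (56.7%), against 62.5% of all tested chains, and 258 of 578 after joining (44.6%), against 52.7%. Here 160 of the 535 reached the minimum only through 1 group, and 375 of 655 differed without them, again including pairs with 1 position per set. Of the pairs with both positions in a set, 263 of 504 differed, and 46 of these 263 reached the minimum only through 1 group. Shares of all chains were not computed under this limit. The counts without such pairs are thus not read as a trait of close pairs. Cell lines also took part in the choice of pairs: a position reached the minimum only with the reads of 1 cell line in all 446 pairs with 1 position per set and in 369 of the other 521. Among the 152 remaining pairs, C2C12 and NIH3T3 differed at 100 (65.8%) and 4T1 and NIH3T3 at 93 (61.2%). The share of all chains was not computed under this limit either, so these percentages are not read as a trait of close pairs. The 2 untreated C2C12 groups came from the siRNA and the differentiation set. Pairs with 1 position per set could not differ between them, since both sets used the same position. Of the 504 tested pairs with both positions in a set, 0 differed in edgeR and 20 had an unadjusted p under 0.05. DESeq2 called 0 pairs, and 0.218% of all tested chains differed in edgeR. A fit of those 2 groups alone called 4.

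The pairs with the widest spread between groups after joining, chosen after their values were seen, kept one position in some lines and the other position elsewhere. At 121359112 and 121359075 on the minus strand of chromosome 7, 37 nt apart, the distal share was at most 5.26% in the 12 C2C12 libraries. It was 75.6% and 86.2% in untreated 4T1 and 96.3% and 97.2% in untreated NIH3T3. Of its 1199 proximal reads, 89 came from 4T1 and 60 from NIH3T3, so that position reached the minimum only with the C2C12 reads and the difference is a description. The 171 nt pair at 124532313 and 124532484 on the plus strand of chromosome 4 ranged from 83.6% to 96.8% over the C2C12 libraries and was 91.9% and 83.8% in untreated 4T1. In NIH3T3 it was 15.5% and 18.3% untreated and 34.5% and 31.3% with siPcf11. C2C12 exceeded NIH3T3 there by 4.80 ± 0.42 on the log2 scale (adjusted p = 1.72e-12). At 104867320 and 104867389 on the plus strand of chromosome 7, 69 nt apart, the joined distal share was 8.57% and 4.48% in untreated C2C12 total RNA, 87.8% and 90.5% in untreated 4T1 and 71.3% and 78.6% in untreated NIH3T3. At the 199 nt pair at 44218275 and 44218474 on the plus strand of chromosome 9, untreated NIH3T3 gave 72.9% and 89.5%, beside joined values of 0% and 0.376% in untreated C2C12 total RNA and 2.86% and 0.877% in untreated 4T1. All 202 listed reads of its distal position came from NIH3T3, so the rule itself fixed this difference.

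**Figure D4:**
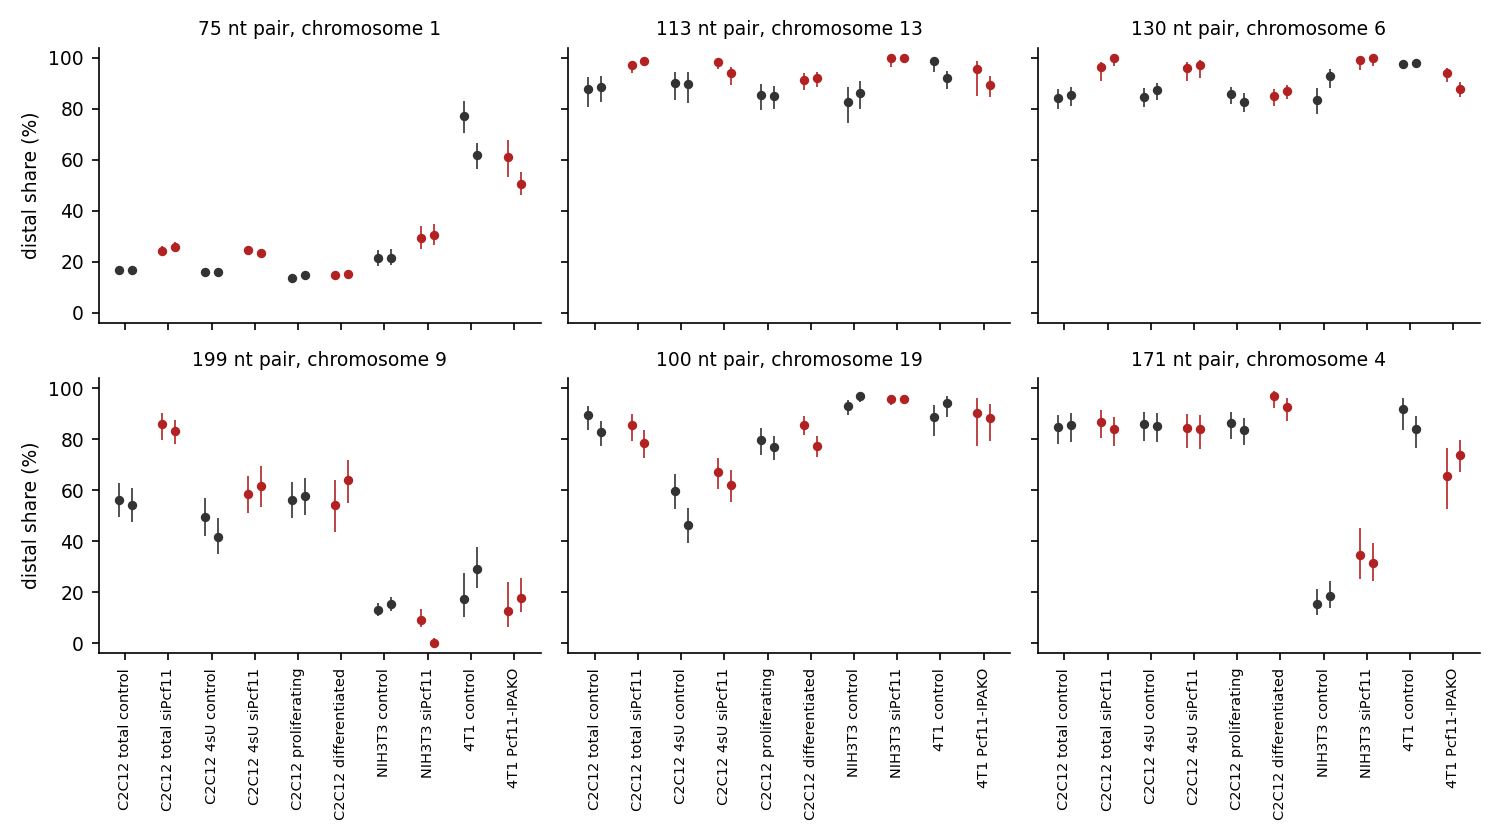
Distal share (%) of 6 close pairs in each library of the 10 groups; points are libraries, bars are Wilson 95% intervals that cover counting error only, and red marks siPcf11, Pcf11-IPAKO and differentiated libraries. In all 3 siPcf11 comparisons the 75 nt pair on chromosome 1 is higher than in untreated libraries (in NIH3T3 with an adjusted p of 0.397), the 100 nt pair on chromosome 19 is lower in 4sU RNA, and the 171 nt pair on chromosome 4 is low in NIH3T3 alone.

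Over all 10 groups, 279 of the 521 pairs had at least 20 reads in every library after joining. The range of a pair's group means was under 10 percentage points for 66 pairs, 10 to 30 points for 114 and 30 points or more for 99, with a median of 22.9 and extremes of 0.258 and 96.8. The median difference between replicates was 2.65 points. The median range was 8.36 points within the 6 C2C12 groups and 14.4 points between the untreated groups of the 3 cell lines. The distal position was the major one in all 10 groups for 116 pairs and the proximal one for 101, while 61 switched. No line was highest throughout: the distal share was highest in C2C12 for 107 pairs, in NIH3T3 for 98 and in 4T1 for 74.

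Averaged over those 279 pairs, the distal share was 51.8% ± 0.260 (SD, n = 2) in untreated C2C12 total RNA and 53.3% ± 0.0383 with siPcf11. In 4sU RNA it was 51.9% ± 0.290 and 53.0% ± 0.0342. NIH3T3 gave 50.6% ± 0.598 untreated and 52.7% ± 1.27 with siPcf11. Library means with siPcf11 lay above the untreated ones in all 3 comparisons, the closest gap being 51.0% against 51.8% in NIH3T3. In 4T1 it was 50.6% ± 0.812 untreated and 48.3% ± 0.389 with Pcf11-IPAKO, and both Pcf11-IPAKO libraries lay below both untreated ones. Differentiation gave 51.5% ± 0.248 in proliferating and 52.1% ± 0.168 in differentiated cells. Over all of the 967 pairs with at least 20 reads in each library compared, the treated mean minus the untreated mean was 1.03 points in C2C12 total RNA (744 pairs), 0.808 in 4sU RNA (741), 1.09 in NIH3T3 (803), −1.12 in 4T1 (696) and 0.447 for differentiation (868), values that include the pairs with 1 position per set. Over pairs with both positions in a set they were 1.87, 1.48, 2.18, −2.12 and 0.831. With 2 libraries a group an exact permutation test cannot go below p = 0.333, so these means carry no test.

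**Figure D5:**
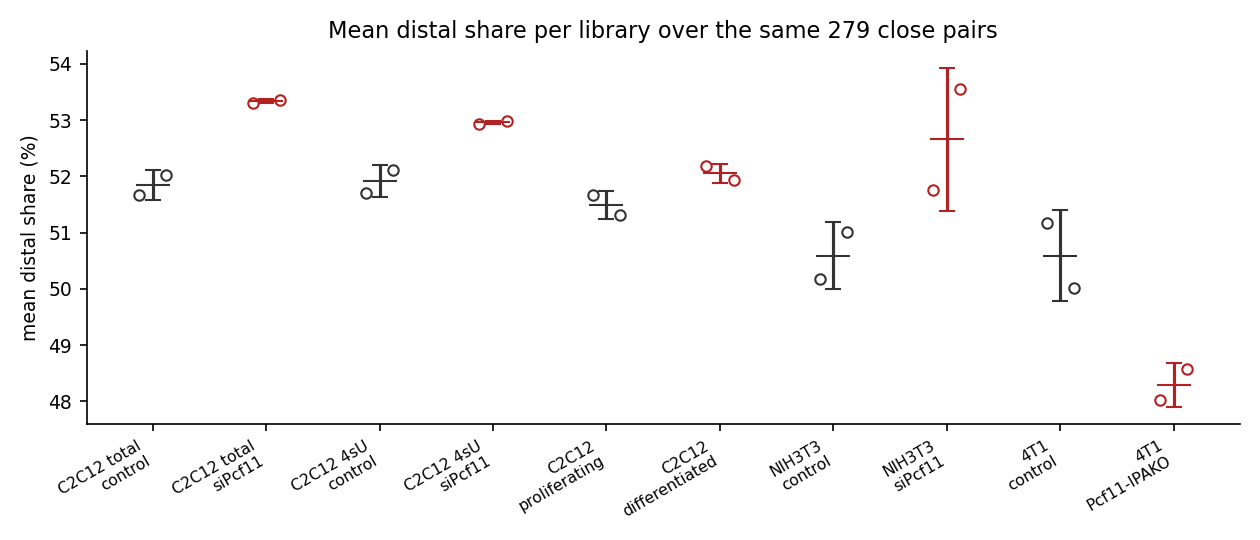
Mean distal share (%, y axis, which does not start at 0) over the same 279 close pairs, with listed positions within 24 nt joined, in each of the 10 groups (x axis); open circles are libraries and bars are the mean ± SD of 2 libraries. The siPcf11 libraries lie above their untreated ones in C2C12 and NIH3T3, and the Pcf11-IPAKO libraries lie below the untreated 4T1 libraries.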

How the data were processed

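The 20 libraries were made with 3′READS, and the deposited files list a chromosome, a strand, a position and a whole-number read count that the authors left unnormalized. The submitters' processing notes name cutadapt, Bowtie2, STAR and the build mm9, without roles or versions. No mm9 genome or annotation was used here, so positions are given without gene names or sequences. The 2 RNA-seq libraries of the series were not used. Samples were grouped by their titles and labels.

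Reads were pooled and chained as described above. Shares were computed for pairs with at least 20 reads in each library compared, and Wilson 95% intervals and limits for a count of 0 (3 counts) cover counting error only. Relative site use was tested over all chains of 2 or more positions with edgeR 4.0.16 (glmQLFit, then diffSpliceDGE; R 4.3.3, limma 3.58.1). Counts were scaled by TMM and filtered by filterByExpr (minimum count 10), and calls had a Benjamini-Hochberg adjusted p under 0.05. SEs were obtained as |log2 change| / √F. The 8 C2C12 siRNA libraries were fitted together, as were the 8 untreated total RNA libraries for cell lines, so that comparisons within a fit share libraries: the untreated total RNA group enters 2 C2C12 comparisons and NIH3T3 untreated enters both cell line comparisons. The test was tested on simulated data. The DESeq2 test, used as an alternative, took only 2-position chains, the libraries of the groups compared and a term per library. Its filter and its family of tests were its own, so its counts and adjusted p differ from edgeR's in more than software. Alternatives were DESeq2 1.42.0, its size factors, no low-count filter, a replicate block, other libraries in the fit, a gap of 2000 nt, a minimum of 500 reads, 50 reads per share, a spacing of 100 nt and leaving out each library. Joining positions within 24 nt, the split by positions per set and leaving out pairs that reached the read minimum through 1 group or 1 cell line were chosen after seeing the data.

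Pairs were named by a rule: in each comparison, called pairs whose libraries do not overlap, the first 5 in each direction by change in distal share, and across the series those with most reads, the closest, the farthest, the most even and the widest spread; of these, a selection is described. Where a comparison named a pair as called, the rule itself fixed that its libraries did not overlap there, so this is no support. The pairs and the lists were chosen with earlier results of these data known. Python 3.11.15, pandas 2.3.3, numpy 2.4.6, scipy 1.17.1 and matplotlib 3.10.9 were used.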

Additional observations from a re-analysis of the deposited data

Results flagged for a closer look

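At 3 of the named close pairs both siPcf11 libraries lay on one side of both untreated libraries in NIH3T3. They lay on the opposite side in C2C12, where the change passed edgeR's test. This is not a count over all pairs. Of the 43 pairs called in C2C12 total RNA and covered in NIH3T3, the mean share was higher in C2C12 and lower in NIH3T3 for 9. The reverse held for 3, and the direction was the same for 24 higher and 4 lower. The difference between the lines was not tested. At 183745478 and 183745446 on the minus strand of chromosome 1, the mean distal share was higher by 23.3 percentage points with siPcf11 in NIH3T3 (19.1% and 23.1% untreated, 35.8% and 52.9% with siPcf11). This pair was not among the 2 called in NIH3T3, and its siPcf11 values there came from 67 and 119 reads. In C2C12 total RNA its distal share fell (adjusted p = 0.0307, edgeR, called in 1 of the 4 fits without 1 library). The 128 nt pair at 74923386 and 74923258 on the minus strand of chromosome 4 differed by −11.1 points in NIH3T3 (15.7% and 18.6% untreated, 9.40% and 2.72% with siPcf11, adjusted p = 0.182), whereas C2C12 total RNA rose from 32.1% and 29.5% to 48.7% and 59.1% (log2 change 1.40 ± 0.46, adjusted p = 0.00909). That call was lost without untreated library 2 or siPcf11 library 2, and DESeq2 gave an adjusted p of 0.123. The 199 nt pair at 51751610 and 51751411 on the minus strand of chromosome 9 differed by −9.50 points in NIH3T3 (12.9% and 15.2% untreated, 9.13% and 0% with siPcf11, the zero of 186 reads allowing up to 1.61%, adjusted p = 0.43), while it rose in both C2C12 total and 4sU RNA.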

How the results depend on the processing

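Under DESeq2 the counts of close pairs called were 12 for siPcf11 in C2C12 total RNA, 7 in 4sU RNA, 1 and 3 for 4sU against total RNA in untreated and siPcf11 cells, and 5 for differentiation. For NIH3T3 the count was 1 with no low-count filter, with the replicate block or with a gap of 2000 nt. For 4T1 it was 5 with the replicate block and 0 with a minimum of 500 reads. For C2C12 against NIH3T3 it was 439 with a minimum of 500 reads and 297 with positions joined, for 4T1 against NIH3T3 335 and 258, and for the 2 untreated C2C12 groups 4 in a fit of those libraries alone. Leaving out 1 library gave 43 to 54 pairs in C2C12 total RNA, 24 to 32 in 4sU RNA, 4 to 34 and 5 to 25 for 4sU against total RNA in untreated and siPcf11 cells, 0 to 133 in NIH3T3, 0 to 1 in 4T1, 13 to 31 for differentiation, 614 to 632 for C2C12 against NIH3T3 and 497 to 524 for 4T1 against NIH3T3. The difference in mean distal share over pairs 100 nt or less apart was 0.629 points in C2C12 total RNA and 0.479 in 4sU RNA. It was −0.615 in 4T1 and 0.182 for differentiation. These pairs include those with 1 position per set, whose share cannot change within a set and which shrink the mean difference. The values are thus not read as a weaker change at close spacing. Over pairs of any spacing with both positions in a set, the difference was 1.87, 1.48, −2.12 and 0.831 in the same order, with 2.18 in NIH3T3. With positions also joined it was 1.86, 1.48, −2.40 and 0.885, with 2.58 in NIH3T3. Over all close pairs, also those with 1 position per set, the difference without 1 library was 0.868 to 1.50 in NIH3T3. It was 0.854 to 1.14 in C2C12 total RNA and 0.683 to 0.959 in 4sU RNA. For 4T1 it was −1.38 to −0.850, and for differentiation 0.390 to 0.523. With all libraries those differences were 1.09 in NIH3T3, 1.03 in C2C12 total RNA, 0.808 in 4sU RNA, −1.12 in 4T1 and 0.447 for differentiation. With positions joined, 2 named pairs changed sign: at 56879896 and 56879795 on chromosome 4 the log2 difference of C2C12 over NIH3T3 became −1.06, and at 70255597 and 70255495 on chromosome 9 that of 4T1 over NIH3T3 became 0.25. The causes were not tested. Differences between replicates correlated by −0.03 to 0.18 between groups. With 2 replicates a group, this cannot decide whether replicate numbers pair libraries, which the labels do not state. The replicate block gave 70, 48 and 45 calls for C2C12 total RNA, 4sU RNA and differentiation. For the 2 comparisons of 4sU with total RNA it gave 36 and 29. It changed no call count by over 1.5 times other than in NIH3T3 and 4T1. Shares of all chains called are not given for most of these alternatives, so their counts are not read as a trait of close pairs. Depth limits pairs with few reads per library, whose intervals are wide.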
